A study of Mus musculus with 18 samples.

Results

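The 52 genes described here drive or mark the cell cycle and were chosen by name, out of 28442 genes in the table. They comprise 7 cyclins, 6 mitotic and checkpoint kinases, 5 inhibitors of cyclin-dependent kinases, 2 transcription factors, 9 replication licensing genes, 5 genes of DNA synthesis and nucleotide supply, 7 spindle and kinetochore genes, 5 cytokinesis genes, 2 partners of the anaphase promoting complex and 4 chromatin or other proliferation markers. All 52 symbols were found in the table. They were followed by bulk RNA-seq in 6 non-tumoral livers and 12 advanced liver tumors, 18 samples from 17 mice, since tumors 11 and 12 came from the same mouse. All mice were untreated Alb-R26Met males, so livers and tumors shared the genotype. A Met transgene, a chimera of mouse and human sequence placed at the Rosa26 locus behind a stop cassette (R26stopMet, on a C57BL/6JRj background), was switched on by Alb-Cre, which the albumin promoter drives in hepatocytes (on a second inbred background), and the mice were the first generation of that cross. The livers came from mice that had not developed tumors, so no wild-type tissue is included. Age at collection ranged from 52 to 71 weeks among livers, with a median of 56.5, and from 49 to 72 weeks among tumors, with a median of 65. The sample descriptions also carry a tag, E19 or E20, whose meaning is not given. E19 marks 2 livers and 7 tumors, and E20 marks 4 livers and 5 tumors.

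Hepatocytes of an adult liver rest outside the cell cycle and re-enter it after injury or loss of tissue. The MET receptor, which binds hepatocyte growth factor, is among the signals that bring them back. D-type cyclins with their kinases inactivate the retinoblastoma protein and so free E2F factors, which switch on cyclin E, the MCM helicase and the enzymes that make nucleotides. Cyclins A and B with CDK1 then lead the cell through mitosis, and many mitotic genes are held down in resting cells by the DREAM complex, which reaches DNA through a promoter element named the cell cycle genes homology region (CHR).

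Levels are given as TPM, the share of a library's transcripts on a common scale, which accounts for transcript length, in whole numbers. The study calls the deposited table raw counts, but its values were read here as rounded TPM, which is what they matched where that could be checked, so a level listed at 0 is taken as a TPM under 0.5. Totals were 835144 to 884597 in livers and 845356 to 907513 in tumors, and TPM do not keep the number of reads behind a value, for which the study states only 1 target for all samples. Met, the transgene's counterpart in the table, stood at 15 to 48 in livers (median 26.5) and at 25 to 207 in tumors (median 124), with transgene and endogenous reads not separated. Hepatocyte markers (Alb, Ttr, Apoa1 and 4 more) summed to 41526 to 56814 in livers and 11285 to 87052 in tumors. Tumor 2 stood apart. A single gene, Siglece, took 82.9% of its total, against 17.9% to 29.5% in livers and 21.5% to 53.4% in the other tumors, and 8718 genes were above 0 in it. A level of 1 there became 5.14 after scaling between samples, against 0.703 to 1.27 in the other samples, so results are also given without it.

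Most of the cell cycle genes that could be tested were higher in tumors, and those of mitosis and cytokinesis stood near 0 in livers. After scaling, 39 of the 52 genes reached a value of 1 in at least 6 samples and were tested on the log2(scaled TPM + 1) scale with limma. Of these, 25 were higher in tumors, 1 was lower (Tk1) and 13 did not pass an adjusted p of 0.05, whereas 9.77% of all 11708 genes tested were higher and 9.28% were lower. The median log2 difference, tumor minus liver, was 1.11 over the 39 genes and -0.06 over all genes tested. For 21 of them the log2 difference was at least 1 and passed, against 5.59% of all genes tested. A gene near 0 in livers passed the filter only through its level in tumors, so these counts lean upward. With no filter, which kept 15568 genes, 33 of all 52 were higher (7.67% of all genes) and 1 was lower (7.9% of all genes), with a median of 0.89 against -0.06. Without tumor 2, 34 of 42 genes tested were higher (14.8% of all genes). In bulk tissue, a larger share of cycling cells and more RNA of these genes in each cell cannot be told apart.

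**Figure D1:**
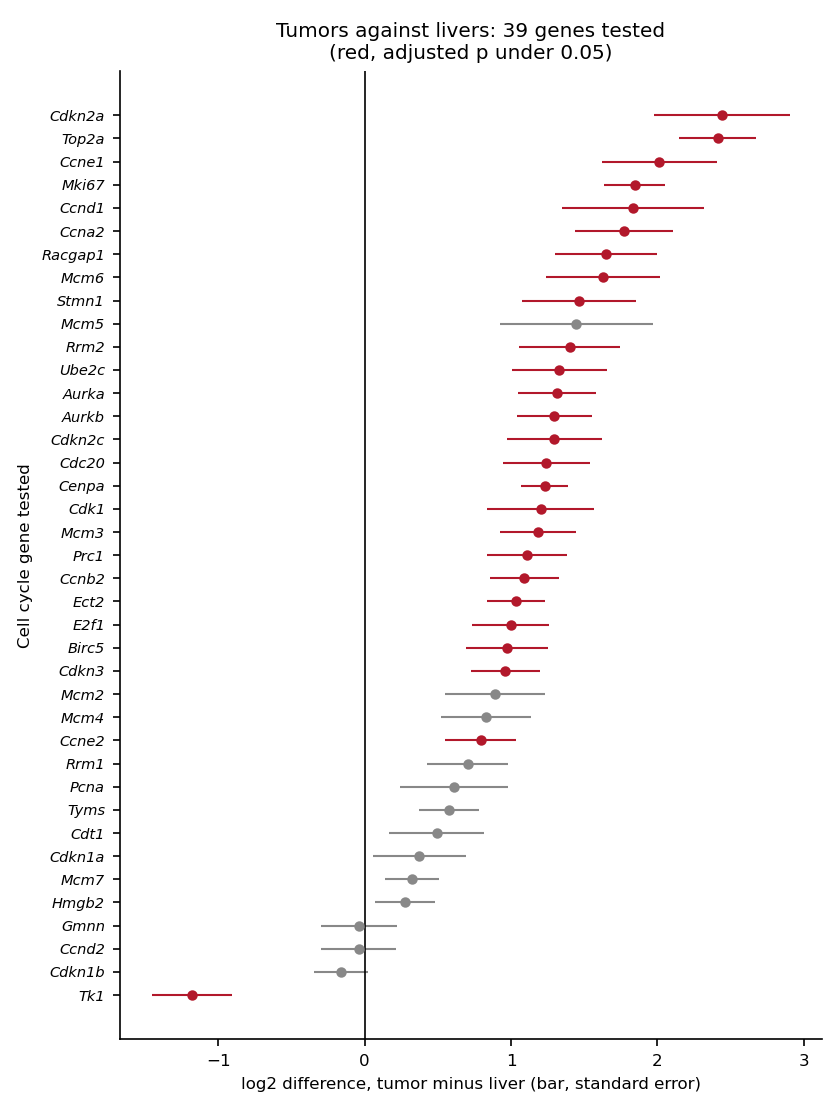
Log2 difference, tumor minus liver, on the log2(scaled TPM + 1) scale for the 39 cell cycle genes tested, with bars for the standard error and red for an adjusted p under 0.05. Values run from -1.18 for Tk1 to 2.44 for Cdkn2a, and 35 of 39 lie above 0.

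The samples were set apart gene by gene as well. Overlaps of single genes here and below are of the deposited TPM, whereas log2 differences and p-values come from scaled values. The 2 scales can differ, and in scaled values every tumor exceeded every liver for Top2a, Rrm2 and Cenpa too. In the deposited TPM, every one of the 12 tumors exceeded every liver for 2 of the 39 members tested, Mki67 and Ccna2, whereas 0.444% of all genes tested did so. Without tumor 2 the number was 11 of 39 (Ccnb2, Ect2, Mki67, Aurka, Ube2c, Ccna2, Top2a, Cdkn2c, Stmn1, Cenpa and Ccne1), against 2.45% of all genes tested. Ccnb2, Ect2, Mki67, Aurka, Ube2c and Ccna2 were at 0 in every liver and passed the filter only through tumors. For such genes a listed level of 1 in each tumor is enough, so these counts lean upward too. For 0 of the 39 members tested did every tumor lie below every liver, with or without tumor 2, against 0.837% of all genes tested. A gene listed at 0 in any liver could not do so, so this count says little about the members.

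**Figure D2:**
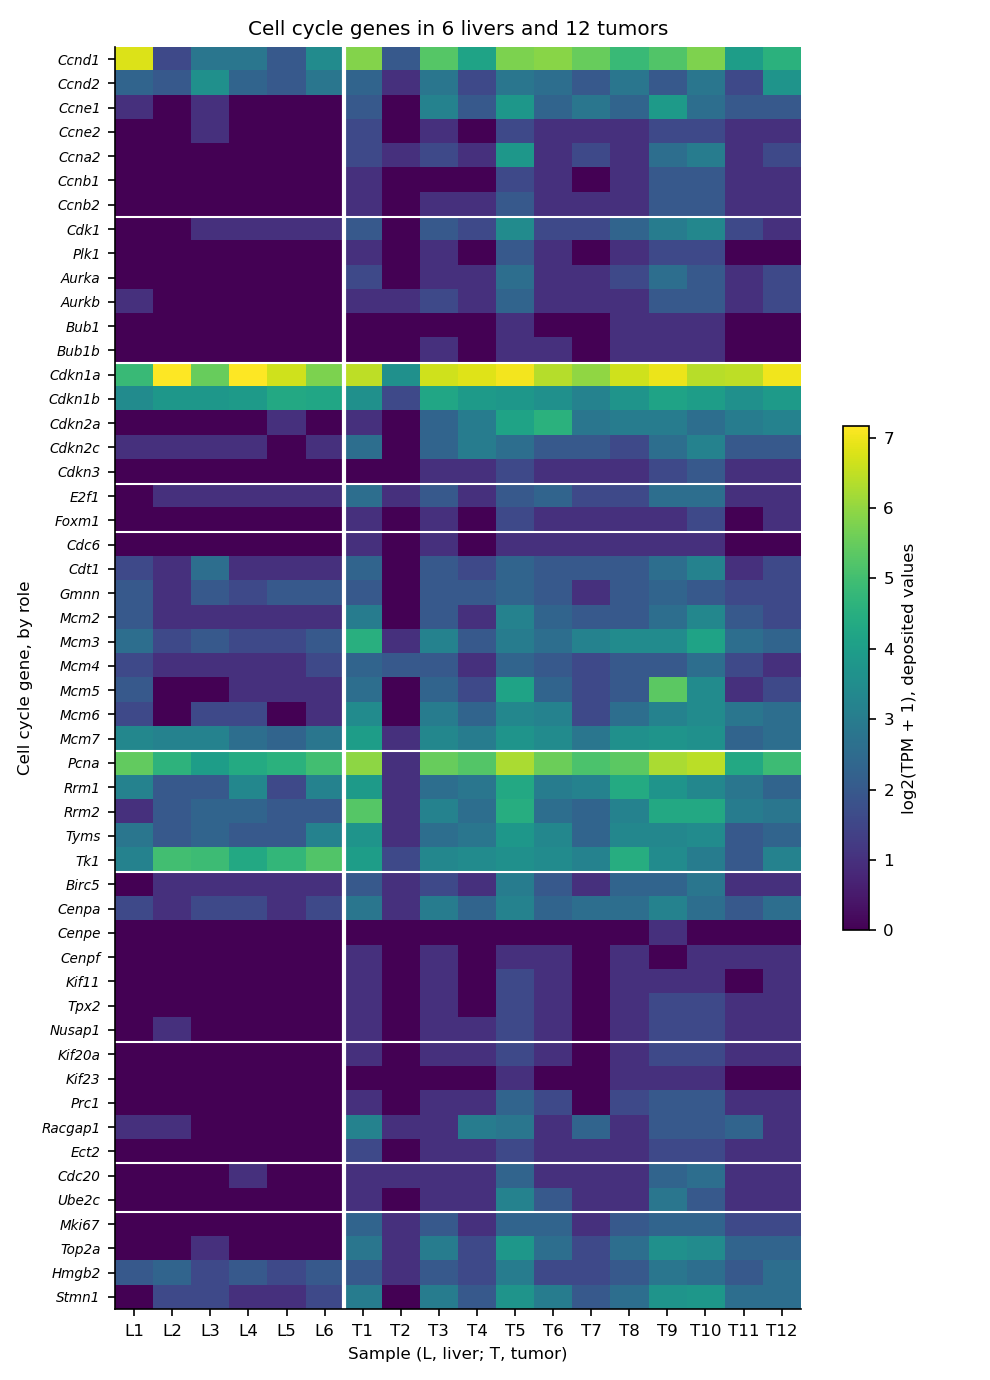
Level of each of the 52 cell cycle genes (rows, grouped by role between white lines) in 6 livers (L) and 12 tumors (T), as log2(TPM + 1) of the deposited values. Most mitotic genes are dark in all livers, tumors 5, 9 and 10 are the brightest for many genes, and tumor 2 is dark for most, with 22 genes above 0.

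Promoter stretches are shown for 6 members, with the letters of 3 motif classes in capitals. These are the CHR (TTTGAA or TTTAAA), the CCAAT box bound by NF-Y, and E2F sites (TTTCGCGC, TTTGGCGC or TTTCCCGC), all searched on both strands, so that a CCAAT box on the other strand reads ATTGG. The E2F spellings TTTCGCGC and TTTGGCGC can overlap on opposite strands, as they do in Mcm6. Top2a and Mki67 were chosen as leading proliferation markers, Cdk1 and Ccnb2 as the mitotic kinase and its cyclin, Mcm6 for replication licensing and Tk1 as the gene that fell. Each stretch has 180 bases, from 150 before the start of transcription to 30 after it, from RefSeq on GRCm38.p6, and all 6 genes lie on the minus strand. The positions are chr11:99024160-99024339 for Top2a, chr7:135716350-135716529 for Mki67, chr10:69352883-69353062 for Cdk1, chr9:70421525-70421704 for Ccnb2, chr1:128359676-128359855 for Mcm6 and chr11:117825985-117826164 for Tk1.
Top2a: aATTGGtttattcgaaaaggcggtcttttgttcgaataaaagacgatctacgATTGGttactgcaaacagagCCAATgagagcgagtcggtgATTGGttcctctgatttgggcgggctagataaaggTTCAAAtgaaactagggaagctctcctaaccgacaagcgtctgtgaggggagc
Mki67: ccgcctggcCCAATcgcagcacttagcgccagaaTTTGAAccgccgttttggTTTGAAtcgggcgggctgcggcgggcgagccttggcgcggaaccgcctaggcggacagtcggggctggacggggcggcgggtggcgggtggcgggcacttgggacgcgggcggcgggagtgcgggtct
Cdk1: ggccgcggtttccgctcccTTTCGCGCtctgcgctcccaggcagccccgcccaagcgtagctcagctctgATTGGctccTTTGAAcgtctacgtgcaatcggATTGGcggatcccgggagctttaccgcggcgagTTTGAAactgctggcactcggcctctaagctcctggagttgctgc
Ccnb2: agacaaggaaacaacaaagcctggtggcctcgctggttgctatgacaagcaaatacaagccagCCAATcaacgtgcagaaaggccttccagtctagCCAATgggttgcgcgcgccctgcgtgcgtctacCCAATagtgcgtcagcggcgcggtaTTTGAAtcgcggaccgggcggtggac
Mcm6: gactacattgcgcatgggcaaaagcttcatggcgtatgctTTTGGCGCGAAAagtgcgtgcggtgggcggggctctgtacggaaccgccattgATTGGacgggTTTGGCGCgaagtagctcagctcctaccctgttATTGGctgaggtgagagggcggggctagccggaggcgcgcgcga
Tk1: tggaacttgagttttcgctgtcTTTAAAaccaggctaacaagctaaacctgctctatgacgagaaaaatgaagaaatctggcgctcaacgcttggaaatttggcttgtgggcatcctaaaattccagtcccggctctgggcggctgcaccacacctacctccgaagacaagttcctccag

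These stretches held 1 CHR and 4 CCAAT boxes for Top2a, 2 CHR and 1 CCAAT box for Mki67, 2 CHR, 2 CCAAT boxes and 1 E2F site for Cdk1, and 1 CHR and 3 CCAAT boxes for Ccnb2. Mcm6 held 3 E2F sites and 2 CCAAT boxes with 0 CHR, while Tk1 held 1 CHR and neither of the other motifs. Over the whole RefSeq window, from 250 bases before the start to 50 after it, 41 of the 52 genes could be searched, with 47 windows. A CHR stood in 61.7% of their windows against 27.6% of all 32851 windows, and a CCAAT box in 74.5% against 37.4%. Both motifs were present in 55.3% against 10.7%, and an E2F site in 17% against 1.84%. By role, 4 of 4 cytokinesis genes, 5 of 6 spindle and kinetochore genes and 4 of 5 mitotic and checkpoint kinases with a window held a CHR. Of the 8 members with an E2F site, 6 were replication licensing genes, of 7 with a window. A match is a run of letters and no measurement of binding.

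**Figure D3:**
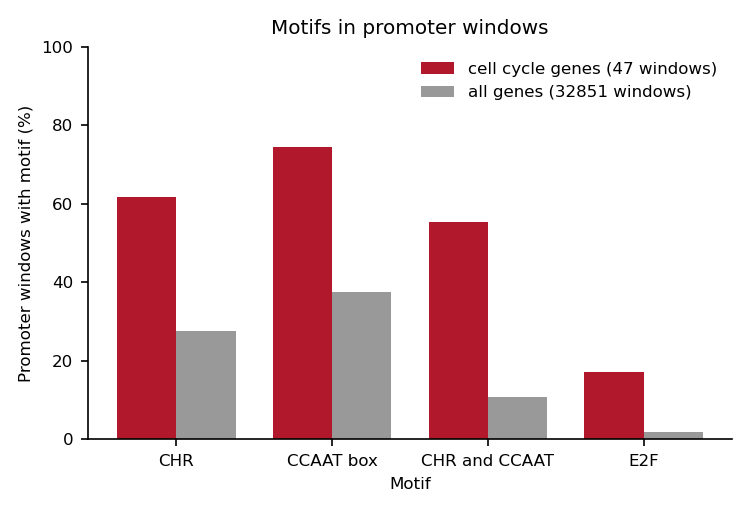
Share of promoter windows that hold each motif, in percent, for cell cycle genes (red, 47 windows) and all genes (grey, 32851 windows). CHR and CCAAT box together stand in 55.3% of the cell cycle windows and in 10.7% of all windows.

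Of the proliferation markers, Top2a, the topoisomerase that untangles chromosomes, was at 0 in 5 livers and at 1 in liver 3, and at 1, 5 and 13 (lowest, median and highest) in tumors. Tumor 2 at 1 matched liver 3 and all other tumors lay above every liver. The log2 difference was 2.41 (standard error 0.26, adjusted p = 1.48e-06). Mki67, the gene of the Ki-67 antigen that coats mitotic chromosomes, was listed at 0 in all 6 livers and at 1, 3 and 4 in tumors. No tumor overlapped the livers, and the log2 difference was 1.85 (standard error 0.21, adjusted p = 2.13e-06). Where a gene is listed at 0 in every liver, this difference depends on the added 1 and is no fold change. Stmn1, which destabilizes microtubules, was at 0, 1.5 and 2 in livers and 0, 6 and 13 in tumors, and all tumors but tumor 2 lay above the livers (log2 difference 1.46, standard error 0.39, adjusted p = 0.0111). Hmgb2, a DNA-bending chromatin protein, overlapped widely, with 2 to 4 in livers and 1 to 7 in tumors (adjusted p = 0.395).

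**Figure D4:**
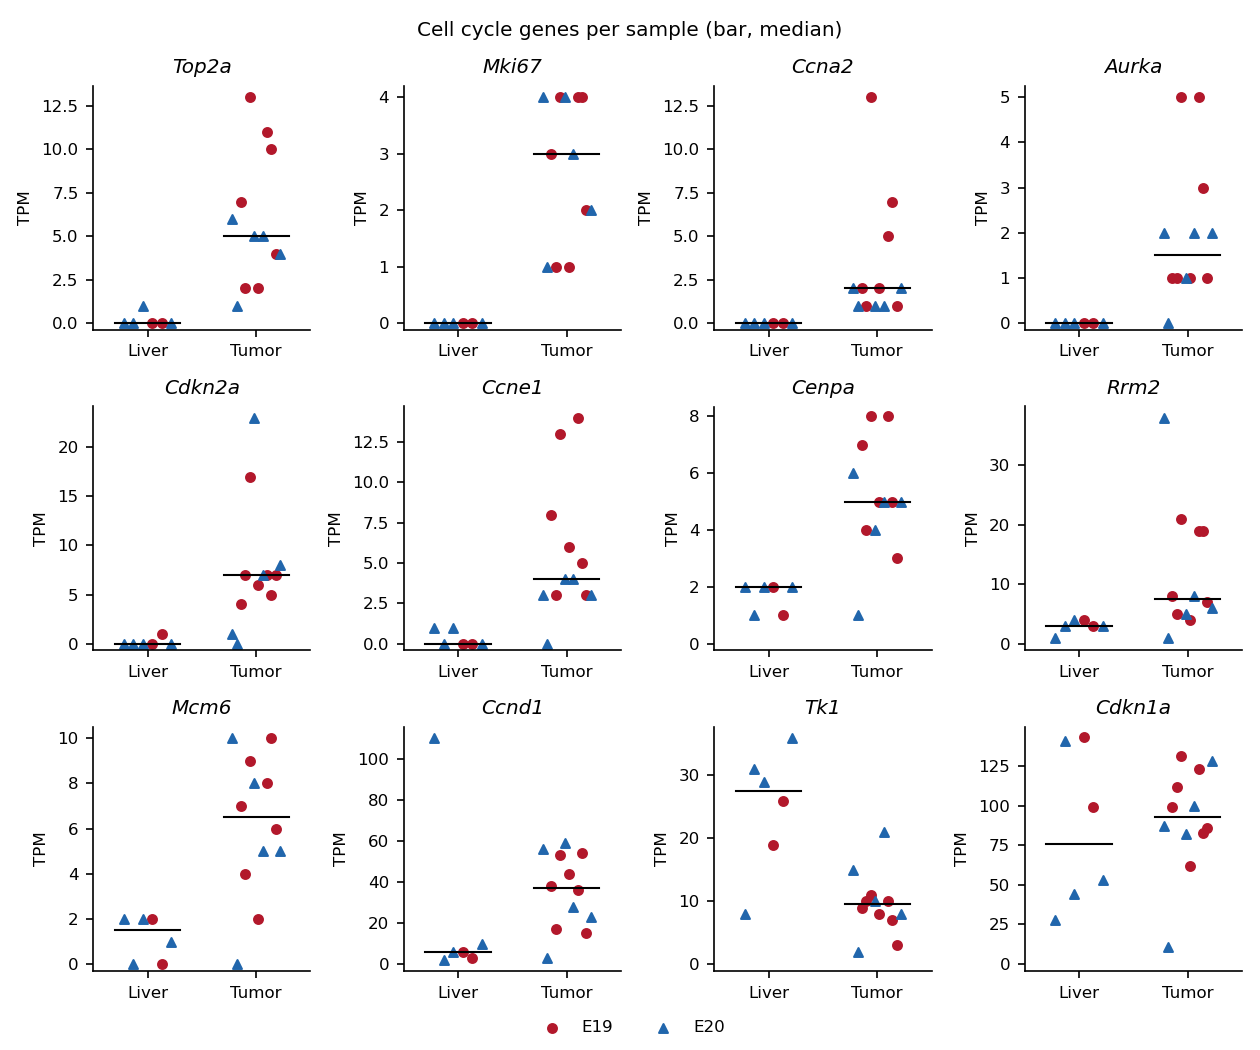
TPM of 12 cell cycle genes in each of 6 livers and 12 tumors (red circles, E19; blue triangles, E20; bar, median), each panel with its own axis from 0. Mki67 and Ccna2 are at 0 in every liver and at 1 or more in every tumor, Ccnd1 has a liver at 110, and most tumors lie below most livers for Tk1.

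Among the 7 cyclins, 5 of the 6 tested rose, against 9.77% of all genes tested. With no filter, 6 of all 7 rose, against 7.67% of all genes. Ccnd1, cyclin D1, which starts G1 progression, stood at 2, 6 and 110 in livers and 3, 37 and 59 in tumors. Liver 1 alone held the 110 while the other livers were at 2 to 10, and 11 of the 12 tumors, at 15 to 59, lay above those 5 livers. The log2 difference was 1.83 (standard error 0.49, adjusted p = 0.0107), and 2.47 without liver 1 (adjusted p = 1.39e-05). Ccne1, cyclin E1, which fires entry into S phase, was at 0 in 4 livers and 1 in the other two, and at 0, 4 and 14 in tumors. Tumor 2 was the tumor at 0 and all others were at 3 or more, with a log2 difference of 2.01 (standard error 0.39, adjusted p = 0.00101). Ccne2, the second E-type cyclin, was at 0 to 1 in livers and 0 to 2 in tumors (adjusted p = 0.0264), a call that was lost without liver 1, 2, 4, 5 or 6 (adjusted p of 0.0515 to 0.0683). Ccnd2, cyclin D2, did not pass, with 3 to 11 in livers and 1 to 12 in tumors.

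Cyclin A2 (Ccna2), which acts in S phase and G2, was listed at 0 in all livers and at 1, 2 and 13 in tumors, with no overlap. Its log2 difference was 1.77 (standard error 0.34, adjusted p = 0.000821), and tumor 5 was the highest. Cyclin B2 (Ccnb2), a partner of CDK1, was at 0 in all livers and at 0, 1 and 3 in tumors (log2 difference 1.09, standard error 0.23, adjusted p = 0.00223). All tumors but tumor 2 were above the livers. Ccnb1, cyclin B1, was under the filter, with 0 in all livers, at most 3 in tumors and 0 in 4 tumors.

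All 3 of the mitotic and checkpoint kinases that were tested rose. With no filter, 3 of all 6 rose, against 7.67% of all genes. Cdk1, the kinase that starts mitosis, was at 0, 1 and 1 in livers and 0, 2.5 and 10 in tumors. Tumor 12, at 1, and tumor 2, at 0, lay within the livers' range and the other 10 above it (log2 difference 1.20, standard error 0.37, adjusted p = 0.0245). The call was lost without liver 1 (adjusted p = 0.0588) and without liver 2 (adjusted p = 0.0749). Aurka, aurora kinase A of the spindle poles, was at 0 in all livers and at 0, 1.5 and 5 in tumors (log2 difference 1.31, standard error 0.27, adjusted p = 0.00151). Aurkb, aurora kinase B of the chromosomal passenger complex, was at 0, 0 and 1 in livers and 1, 1 and 4 in tumors (log2 difference 1.30, standard error 0.25, adjusted p = 0.00112). For Aurka only tumor 2 matched the livers, and for Aurkb the 7 tumors at 1 matched liver 1. Plk1, Bub1 and Bub1b, which control mitotic entry and the spindle checkpoint, were under the filter, at 0 in every liver and at most 3 in any tumor. They did not pass in the fit without a filter either (adjusted p of 0.0811, 0.305 and 0.124).

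The genes of the spindle and kinetochore, of cytokinesis and of the anaphase promoting complex showed low levels in tumors too. Cenpa, the histone variant that marks centromeres, was at 1, 2 and 2 in livers and 1, 5 and 8 in tumors. Tumor 2 was the tumor at 1 and all others lay above every liver, with the smallest standard error of the 39 genes tested (log2 difference 1.23, standard error 0.16, adjusted p = 1.2e-05). Birc5, survivin of the passenger complex, was at 0, 1 and 1 in livers and 1, 2.5 and 7 in tumors. Its groups touched at 1, where 5 tumors stood (log2 difference 0.97, standard error 0.28, adjusted p = 0.0182), and without liver 1 the adjusted p was 0.0547.

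Ect2, an activator of RhoA at the cleavage site, was at 0 in every liver and at 0, 1 and 2 in tumors (log2 difference 1.04, standard error 0.20, adjusted p = 0.000847), with tumor 2 alone at 0. Racgap1, its partner in the centralspindlin complex, was at 0, 0 and 1 in livers and 1, 3 and 8 in tumors (log2 difference 1.65, standard error 0.35, adjusted p = 0.00192). It departed from the other cytokinesis genes in which tumors were high, with tumor 1 at 8 and tumor 4 at 7. Prc1, which bundles microtubules of the central spindle, was at 0 in all livers and at 0, 1 and 4 in tumors (log2 difference 1.11, standard error 0.27, adjusted p = 0.00662), and tumors 2 and 7 were at 0.

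Cdc20, the activator of the anaphase promoting complex, was at 0, 0 and 1 in livers and 1, 1 and 5 in tumors (log2 difference 1.24, standard error 0.30, adjusted p = 0.00541). Ube2c, its ubiquitin-conjugating enzyme, was at 0 in all livers and at 0, 1 and 8 in tumors (log2 difference 1.33, standard error 0.33, adjusted p = 0.00631). In both, the high values came from the same 3 tumors, 5, 9 and 10, at 3 to 8, and the remaining tumors were at 0 to 1, apart from tumor 6 at 3 for Ube2c.

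The other members are missing from the tested genes. They are Ccnb1, Plk1, Bub1, Bub1b, the transcription factor Foxm1, the loading factor Cdc6, and the spindle and cytokinesis genes Cenpe, Cenpf, Kif11, Tpx2, Nusap1, Kif20a and Kif23. Of these, 12 were at 0 in all livers, Nusap1 was at 1 in liver 2, and the highest tumor level was 3. In the fit without a filter, 8 of the 13 were higher in tumors (Ccnb1, Foxm1, Cdc6, Cenpf, Kif11, Tpx2, Nusap1 and Kif20a), against 7.67% of all genes. Log2 differences over the 13 ran from 0.07 to 0.90. The 12 at 0 in all livers could not come out lower in tumors.

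Inhibitors of cyclin-dependent kinases were split. Cdkn2a, the locus of p16 and p19ARF, was at 0 in 5 livers and 1 in liver 5, and at 0, 7 and 23 in tumors. Tumor 6 was the highest at 23 and tumor 5 followed at 17, while tumors 2 and 1, at 0 and 1, fell in the livers' range (log2 difference 2.44, standard error 0.47, adjusted p = 0.000858). Cdkn2c, p18, an inhibitor of CDK4 and CDK6, was at 0, 1 and 1 in livers and 0, 3.5 and 8 in tumors (log2 difference 1.30, standard error 0.32, adjusted p = 0.00719). Only tumor 2 did not exceed the livers. Cdkn3, a phosphatase that acts on cyclin-dependent kinases, was at 0 in all livers and at 0, 1 and 3 in tumors (log2 difference 0.96, standard error 0.24, adjusted p = 0.00669), and tumors 1 and 2 were at 0.

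The inhibitors with the highest levels did not pass. Cdkn1a, p21, the effector of p53, was at 28, 76 and 143 in livers and 11, 93 and 131 in tumors, and both groups spanned the same range (log2 difference 0.37, standard error 0.32, adjusted p = 0.469). Cdkn1b, p27, was at 10, 13.5 and 19 in livers and 2, 12.5 and 18 in tumors (log2 difference -0.16, standard error 0.19, adjusted p = 0.614).

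Of the transcription factors, E2f1, which drives S phase genes, was at 0, 1 and 1 in livers and 1, 2.5 and 5 in tumors. Tumors 2, 4, 11 and 12 stood at 1 with the livers, and the other 8 lay above them (log2 difference 1.0, standard error 0.26, adjusted p = 0.0103).

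Of the replication licensing genes, 2 of the 8 tested rose, against 9.77% of all genes tested. With no filter, 3 of all 9 rose, against 7.67% of all genes. Mcm6, a subunit of the MCM helicase, was at 0, 1.5 and 2 in livers and 0, 6.5 and 10 in tumors, and 10 tumors exceeded every liver (log2 difference 1.63, standard error 0.39, adjusted p = 0.00547). Mcm3, another subunit, was at 2, 2.5 and 5 in livers and 1, 7.5 and 22 in tumors, where tumor 1 at 22 and tumor 10 at 17 were highest (log2 difference 1.18, standard error 0.26, adjusted p = 0.00299). The other 4 subunits, Mcm2, Mcm4, Mcm5 and Mcm7, did not pass, with adjusted p of 0.073, 0.0658, 0.0591 and 0.245. Without tumor 2, Mcm2, Mcm4 and Mcm5 passed too (adjusted p of 0.00405, 0.0173 and 0.0141), and Mcm7 did not (adjusted p = 0.111). That made 5 of 8 licensing genes, against 14.8% of all genes. Mcm5 was at 0 to 3 in livers and reached 40 in tumor 9 and 17 in tumor 5. The loading factor Cdt1 and its inhibitor Gmnn did not pass either, with 1 to 5 and 1 to 3 in livers and 0 to 8 and 0 to 4 in tumors.

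Of the 5 genes of DNA synthesis and nucleotide supply, 1 rose, against 9.77% of all genes tested, and 1 fell, against 9.28%. Rrm2, the regulated subunit of ribonucleotide reductase, was at 1, 3 and 4 in livers and 1, 7.5 and 38 in tumors (log2 difference 1.40, standard error 0.34, adjusted p = 0.0063). Tumor 1 held the 38, and all tumors but tumors 2 and 7 lay above the livers. Tk1, the thymidine kinase that salvages thymidine in S phase, was at 8, 27.5 and 36 in livers and 2, 9.5 and 21 in tumors. Liver 1 was the liver at 8, the other 5 were at 19 to 36, and only tumor 8 reached into that range (log2 difference -1.18, standard error 0.28, adjusted p = 0.00445). Without liver 1 the difference was -1.51 (adjusted p = 3.56e-05). Exons of Tk1 overlap Afmid on the other strand, and whether strand was kept in counting is not given in the sources used here.

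Pcna, the sliding clamp of DNA polymerases, was at 15, 23.5 and 43 in livers and 1, 42 and 85 in tumors, and the groups overlapped (log2 difference 0.61, standard error 0.37, adjusted p = 0.276). Without tumor 2, which was the tumor at 1, it passed (log2 difference 0.87, adjusted p = 0.00916). Rrm1, the large subunit of ribonucleotide reductase, and Tyms, thymidylate synthase, were at 2 to 9 and 3 to 8 in livers and 1 to 20 and 1 to 13 in tumors. They missed the threshold with adjusted p of 0.0826 and 0.0525, and passed without tumor 2 (adjusted p of 0.0494 and 0.0317). Without tumor 2, 4 of the 5 genes of this role rose, against 14.8% of all genes.

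Exons of 12 members overlap those of other genes. Ccnd1, Ccnd2, Ccne2, Ccna2, Mcm7, Prc1, Cdc20 and Ube2c as well as Tk1 overlap a gene on the other strand. Reads of such neighbours could not be told apart here if strand was not kept. Foxm1 overlaps genes on its own strand, where strand does not separate the reads.

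The tumors differed among themselves, and the same ones were high for gene after gene. In the deposited TPM, tumors 5, 9 and 10 were among the 3 highest tumors for 48, 41 and 44 of the 52 genes, with ties counted. For 17 genes these 3 lay above all other tumors with no tie, among them Ccnb1, Cdk1, Plk1, Aurka, Tpx2 and Top2a. In scaled values they were among the 3 highest for 35, 31 and 38 genes, and above all others for 18. Tumors 5, 9 and 10 were picked from these same values, and all 3 carry the tag E19. The same counts were not made over all genes, so whether these tumors were high for other genes too was not tested. Tumor 2 was the lowest, or tied for it, for 51 genes in the deposited TPM and 33 in scaled values. In scaled values, where its listed 1 becomes 5.14, it was also the highest tumor for 5 genes and among the 3 highest for 11. The tests used scaled values, so for those genes it counted as a high tumor. Livers had 23 to 26 of the genes above 0, tumor 2 had 22 and each other tumor had 40 to 51. Summed over 23 mitotic genes (kinases, spindle, cytokinesis, anaphase promoting complex, Ccna2, Ccnb1 and Ccnb2), levels were 3, 4 and 5 in livers and 6, 29.5 and 91 in tumors. Tumor 5 reached 91, tumor 9 reached 69 and tumor 10 reached 68, whereas the other tumors were at 6 to 38. Licensing genes summed to 13 to 29 in livers and 5 to 88 in tumors, with tumor 1 at 71 beside tumors 9, 10 and 5 at 88, 74 and 66. These sums are of deposited TPM. After scaling, the mitotic sums were 2.93 to 5.02 in livers and 21.2 to 72 in tumors, with tumor 2 at 30.8. Licensing sums were then 13.1 to 21.7 in livers and 19.5 to 75 in tumors, with tumor 2 at 25.7.

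**Figure D5:**
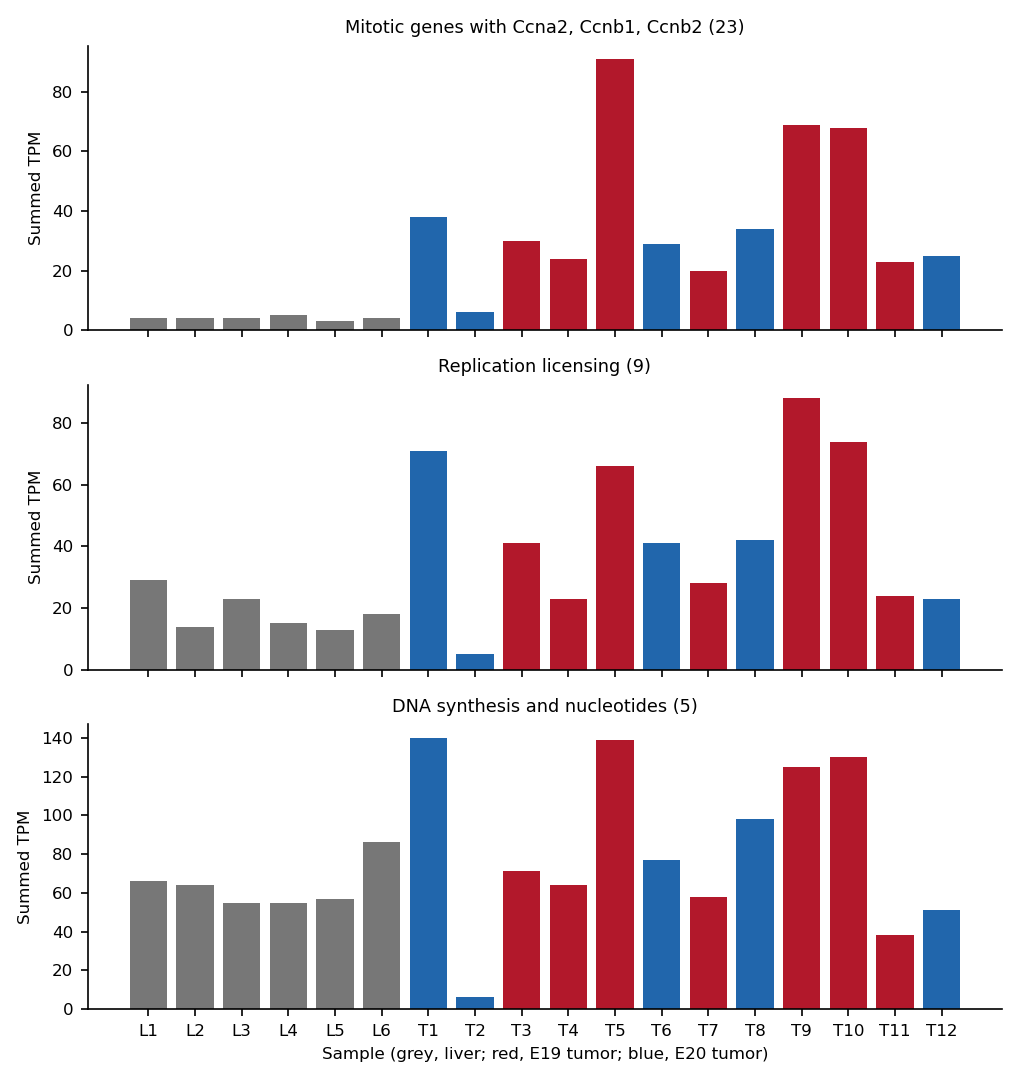
Summed TPM of 23 mitotic genes, 9 replication licensing genes and 5 genes of DNA synthesis and nucleotide supply in each liver (L, grey) and tumor (T, red for E19 and blue for E20). Mitotic sums are 3 to 5 in livers and 6 to 91 in tumors, while the lower panels overlap between livers and tumors.

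Markers of other cell types moved with some of these tumors. Leukocyte markers (Ptprc, Laptm5, Coro1a, Cd52 and Cd53) summed to 18 to 40 in livers and 3 to 77 in tumors, with 74 in tumor 5 and 77 in tumor 10. Tumor 9, with a mitotic sum of 69, had a leukocyte sum of 22, within the livers' range. The 4 T lymphocyte markers were at 5 in tumor 5, 8 in tumor 10 and 0 in tumor 9, against 0 to 2 in livers. Stellate cell and fibroblast markers summed to 56 to 66 in livers and 8 to 144 in tumors, with 3 of 5 higher and 1 lower by the test, and stood at 95, 62 and 143 in tumors 5, 9 and 10. Macrophage and Kupffer cell markers ranged from 35 to 93 in livers, highest in liver 1, and from 4 to 71 in tumors, with 2 of 6 lower. Endothelial markers were at 27 to 56 in livers and 13 to 72 in tumors (2 of 5 higher). Biliary markers were at 4 to 12 and 3 to 16 and erythroid markers at 0 to 13 and 1 to 45. The part of these cells in the levels of tumors 5 and 10 was not tested.

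Livers and tumors were also compared within each tag, without a filter on low values so that each gene kept a value. Among E19 samples (2 livers and 7 tumors), the log2 difference was above 0 for 49 of 52 genes, with a median of 1.07, and 16 were higher by the test, against 5.86% of all genes. Among E20 samples (4 livers and 5 tumors) it was above 0 for 47 of 51, with a median of 0.67, and 4 were higher, against 2.42% of all genes. Without tumor 2, the E20 samples gave 49 of 51 above 0, a median of 0.98 and 21 higher, against 5.81% of all genes. With the filter, 13 of 31 genes were higher in E19 samples (7.73% of all genes) and 1 of 18 in E20 samples (2.82%), or 5 of 19 without tumor 2 and liver 1 (9.25%).

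Top2a, Mki67 and Cenpa passed within both tags. For Top2a the log2 difference was 2.74 in E19 samples (adjusted p = 0.00792) and 2.12 in E20 samples (adjusted p = 0.00122). For Mki67 it was 1.77 (adjusted p = 0.00933) and 1.97 (adjusted p = 0.00169), and for Cenpa 1.36 (adjusted p = 0.00849) and 1.07 (adjusted p = 0.0278). Tk1 was lower in both, by the test only in E19 samples (log2 difference -1.46, adjusted p = 0.0151, against -0.88, adjusted p = 0.332), where 4.85% of all genes were lower.

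The difference of the tumor effect between tags was called for 0 of 11708 genes by limma, with 348 at an unadjusted p under 0.05. Among the cell cycle genes, 0 of 39 were called and 2 had an unadjusted p under 0.05 (Cdkn2c and Ccne1). Between tumors alone, E20 minus E19, 2 of 37 cell cycle genes tested were called, against 12.4% of 10769 genes. Both were lower in E20 tumors (3.69% of all genes), Ccne1 by a log2 difference of -1.33 (standard error 0.38, adjusted p = 0.0385) and Cdkn2c by -1.04 (standard error 0.32, adjusted p = 0.0481). Leaving out single tumors gave 0 to 2 such genes, with 0 without tumor 3, 5, 7, 9 or 12. A slope on age over the tumors was called for 0 of 10769 genes by limma, with 128 at an unadjusted p under 0.05, of which 1 was a cell cycle gene (E2f1, 0.05 per week on the log2 scale, unadjusted p = 0.00663).

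Other genes of the cell cycle were counted in the same fit. Of 127 further genes listed by role, 71 were tested, 21 were higher in tumors (9.77% over all genes tested) and 2 lower (9.28%), with a median log2 difference of 0.32 against -0.06 over all genes. By role, 10 of 24 mitotic genes, 5 of 25 replication genes and 6 of 22 genes of G1 and S phase control were higher. With no filter, 19 of 64, 10 of 35 and 6 of 24 were higher, against 7.67% of all genes. Cdkn2b, p15, the inhibitor of CDK4 and CDK6 encoded beside Cdkn2a, was at 0 in all livers and at 1, 9 and 17 in tumors, with no overlap (log2 difference 3.16, standard error 0.24, adjusted p = 1.01e-08). Pkmyt1, a kinase that restrains CDK1, was at 0, 0 and 1 in livers and 1, 4 and 6 in tumors (log2 difference 1.88, adjusted p = 2.89e-06). Uhrf1, which maintains DNA methylation after replication, was at 0, 0 and 1 in livers and 1, 3.5 and 14 in tumors (log2 difference 1.92, adjusted p = 0.000181). Only the tumors at 1 met the livers in these last genes.

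Lig1, the DNA ligase of replication, was at 1 in all livers and at 1, 3 and 5 in tumors (log2 difference 1.05, adjusted p = 0.000219). Cdk6, a partner of D-type cyclins, was at 8, 15 and 27 in livers and 3, 37 and 82 in tumors (log2 difference 1.20, adjusted p = 0.000777). For Cdk6, tumor 2 at 3 lay below the livers, tumor 4 at 20 lay among them and the other 10 lay above. Mcm10, a replication fork factor, went down, from 5, 24.5 and 41 in livers to 0, 5 and 14 in tumors (log2 difference -2.08, standard error 0.48, adjusted p = 0.00386). The liver at 5 was liver 1, and the others were at 21 or more, above every tumor. Tfdp2, the partner of E2F factors, was at 3, 8 and 11 in livers and 1, 3.5 and 6 in tumors (log2 difference -0.73, standard error 0.21, adjusted p = 0.0199), with overlap.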

How the data were processed

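Poly-A RNA was sequenced paired end by the authors, with GRCm38 as the genome, Salmon for quantification and TPM as the normalized unit. The deposited table holds whole numbers, entered here as a score, and the study calls them raw counts. They were read as rounded TPM, because 882 of 900 values for 50 genes (98%) lay within 0.5 of the unrounded TPM given with the study. These 50 genes included 0 of the cell cycle genes described here. Depth is not kept in TPM, so no counting intervals are given. In 8 of the table's lines an extra separator was dealt with.

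Values were scaled by an unweighted trimmed mean of M values (30% of M and 5% of A values trimmed). A gene was tested if its scaled value reached 1 in 6 or more samples. After a pseudocount of 1, log2 values went into an unpaired limma fit with a trend (limma 3.58.1, R 4.3.3). Benjamini-Hochberg adjusted p-values over all genes tested were called under 0.05. On simulated tumor minus liver data (11643 genes), 87 of 90 genes changed by a log2 of 2 and 56 of 95 changed by 1 were called, with 5 unchanged genes called. The changed genes were drawn from those with a mean log2 value above 1, with noise of equal spread in both groups. The shares called therefore do not cover genes nearer 0, such as Ccnb2, Ect2 and Prc1. Tables used Python 3.11.15 and pandas 2.3.3.

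Full statistics are given for up to 3 genes of each role with the lowest adjusted p among those called, for 8 set by name (Mki67, Top2a, Ccnd1, Cdk1, Pcna, Cdkn1a, Cdkn1b and Cdkn2a), and for the 5 other cell cycle genes with the lowest adjusted p in each direction, of which 2 existed for lower. Members and lists were chosen with earlier results of these data known. Tumors 11 and 12 share a mouse, and p-values treat them as separate samples. No 2 samples held identical values. Alternatives included other scalings, filters and pseudocounts, tag and age terms, each tag alone, and leaving out each sample.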

Additional observations from a re-analysis of the deposited data

Results flagged for a closer look

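In the 6 livers, the highest or lowest sample lay far from the other five for 15 of the 32 cell cycle genes whose levels varied, against 1.6 expected, since chance marks about 1 group in 20. Each gap below is the distance to the closest of the other livers as a share of the group's range, and 0.625 is its critical value. Most of these levels differ by 1 TPM unit after rounding, where any lone value gives a gap of 1.0. The 1.6 does not allow for such rounding, so no conclusion is drawn from the excess over it.

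Liver 1 was the sample in 8 of the 15. Ccnd1 stood at 110 in it against 2 to 10 in the others (gap 0.926). Mcm2 was at 3 against 1 (1.0), Mcm3 at 5 against 2 to 3 (0.667) and Mcm5 at 3 against 0 to 1 (0.667). Aurkb was at 1 against 0 (1.0). Lower in liver 1 were Rrm2 at 1 against 3 to 4 (0.667), E2f1 at 0 against 1 (1.0) and Birc5 at 0 against 1 (1.0). Liver 3 stood out for Cdt1, at 5 against 1 to 2 (0.75), and for Ccne2 and Top2a, each at 1 against 0 (1.0). In liver 5, Cdkn2a was at 1 against 0 and Cdkn2c at 0 against 1 (1.0 each). Nusap1 in liver 2 and Cdc20 in liver 4 were each at 1 against 0 (1.0).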

How the results depend on the processing

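The 25 cell cycle genes called higher came to 18 to 34 when single samples were left out (18 without tumor 5, 9 or 10, where 32 were tested, and 34 of 42 without tumor 2), and 1 was called lower each time. Over all genes, leaving out single samples gave 928 to 1808 higher and 692 to 1399 lower, both highest without tumor 2. For other cell cycle genes it gave 17 to 37 higher (37 without tumor 2) and 1 to 3 lower, for the tag among tumors 0 to 2 and for age 0. Without scaling, 670 genes were higher and 671 lower in all, and Ccnd1, Mcm3 and Birc5 lost their calls (adjusted p of 0.0507, 0.0574 and 0.0515). With a pseudocount of 0.1, Cdk1, Cdkn2c and Stmn1 lost theirs (0.0584, 0.0545 and 0.0815). Without a filter, 35 other cell cycle genes were higher. Tyms, at an adjusted p of 0.0525, was called under 10 alternatives, such as median of ratios scaling (0.0436) and the tag as a covariate (0.0492). Sample quality weights made Pcna pass (adjusted p = 0.00272) and gave 2332 higher and 2370 lower genes and 36 other cell cycle genes higher.

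Livers and tumors came from different mice, so the shared sample numbers mark no pairs by mouse. The mean correlation of deviations was 0.18 over 6 same-numbered pairs (range -0.10 to 0.42). Over 30 pairs with different numbers it was -0.04 (range -0.45 to 0.38). With the replicate block on livers and tumors 1 to 6, 9 of 24 cell cycle genes were higher, 675 genes were higher and 684 lower in all, and 7 other cell cycle genes were higher and 1 lower. The same 12 samples without a block gave 7 and 0 cell cycle genes, 643 and 569 genes in all, and 7 and 1 other cell cycle genes.

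E19 samples alone gave 13 cell cycle genes higher, 558 genes lower in all and 1 other cell cycle gene lower. E20 samples alone gave 1 and 0 cell cycle genes higher and lower, 291 and 114 genes in all, and 0 and 0 other cell cycle genes. The remaining alternatives of this paragraph were chosen after seeing the data. With no filter, E19 samples gave 16 cell cycle genes higher, 675 genes lower in all and 1 other cell cycle gene lower, and E20 samples gave 4 and 0, 367 and 137, and 3 and 0. E20 samples without tumor 2 and without a filter gave 0 cell cycle genes, 189 genes in all and 0 other cell cycle genes lower. E20 samples without tumor 2 and liver 1 gave 5 cell cycle genes and 6 other cell cycle genes higher. All samples without tumor 2 and liver 1 gave 1980 genes higher and 1719 lower in all and 38 other cell cycle genes higher. The cause of these shifts was not tested.

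Of the genes with full statistics, Cdkn1a changed sign, to -0.36 in E19 samples with or without the filter, and was called in neither. A CHR stood in 27 members with either spelling and in 12 with TTTAAA alone, and an E2F site in 8 with any of 3 spellings and in 4 with each of TTTCGCGC, TTTGGCGC and TTTCCCGC alone. Rounding to whole TPM limits what can be seen for genes near 0, and most of all in tumor 2.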
